A study of Homo sapiens with 10 samples.

Results

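The comparison set mutant KDM5A against wild-type KDM5A, both expressed from plasmids in KDM5A-/- HCT116 cells, over 5 of the 10 RNA-seq libraries of the series. HCT116 is an established human colorectal carcinoma line. The libraries were chosen by their labels alone: 2 were from knockout cells transfected with mutant KDM5A and 3 from knockout cells transfected with wild-type KDM5A. The other libraries were 3 from knockout cells with empty vector and 2 from parental HCT116 cells, whose KDM5A genotype is wild type, also with empty vector. In every group the cells were sorted for GFP 24 h after transfection and total RNA was taken with Trizol. The knockout line was bought as such and was grown with G418, a selection drug that the parental cells did not receive, so genotype and drug cannot be told apart in any comparison with parental cells. They are shared by the mutant and wild-type groups. The labels do not name the mutation. The series title concerns the methylation of KDM5A by the lysine methyltransferase SMYD2, and the question set by the design is whether gene expression differs when the knockout cells receive the mutant rather than the wild-type protein. Nothing in the labels says that replicates were separate cultures, so the p-values measure the spread between these libraries, which may be technical.

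KDM5A takes methyl groups off lysine 4 of histone H3, a mark found at the promoters of active genes. It belongs to a family with KDM5B, KDM5C and KDM5D, it acts with histone deacetylase corepressors and it was first found as a partner of the retinoblastoma protein. Its ARID domain is known to bind DNA that holds the letters CCGCCC. Each value below is the deposited FPKM (fragments per kilobase of exon, set to the library's size) taken off its log scale, summed by gene symbol and rescaled between libraries by the median of ratios, so it is relative to gene length. A log2 difference is on the log2(value + 1) scale, which understates differences of low genes. The sequencing depth is unknown.

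Both mutant libraries and the second parental library stood apart from the rest in their make-up. Protein-coding genes took 90.3% of the total in each mutant library and 89.6% in parental library 2, against 92.5 to 92.8% in the other 7 libraries. Cytosolic ribosomal protein genes took 15.6 and 16.1% in the mutant libraries and 16.2% in parental library 2, against 12.7 to 14.0% elsewhere. Genes that share over 75% of their transcript sequence with another gene took 3.76 and 3.96% with the mutant and 4.32% in parental library 2, against 2.48 to 3.02% elsewhere. The median gene differed by 0.193 on the log2 scale between the mutant libraries and by 0.186 between the parental libraries, and by 0.113 to 0.135 between replicates of the other groups. Since parental library 2 carried no plasmid KDM5A, the difference between the parental libraries is given below beside the groups of genes with the largest medians, and for the lists drawn in the plot of medians by gene list. What part the make-up has in any result was not tested.

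**Figure D1:**
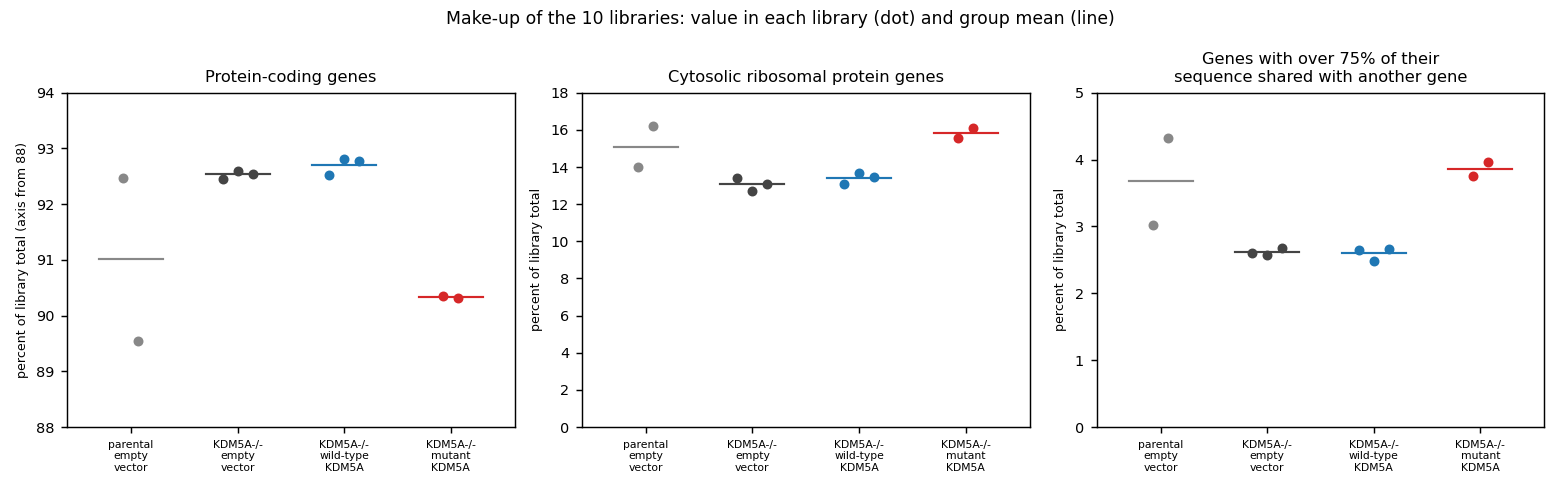
Percent of each library's total taken by protein-coding genes (axis from 88), cytosolic ribosomal protein genes and genes with over 75% of their sequence in another gene, with a dot for each library and a line for each group mean. The 2 mutant libraries and parental library 2 lie together in all 3 panels, and the wild-type and empty-vector libraries lie together apart from them.

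The epithelial identity of the line was visible in all 10 libraries. EPCAM, an epithelial adhesion molecule, ranged from 271 to 389. The keratins KRT8, KRT18 and KRT19 ranged from 1457 to 2298, from 858 to 1310 and from 1148 to 1548. CDX2, a transcription factor of intestinal cells, ranged from 12.5 to 18.9, whereas the intestinal differentiation genes CDX1, VIL1 and LGALS4 stayed under 1 in every library. Of 28 markers of other cell types, 18 stayed under 1 in both mutant libraries and 21 in the 3 wild-type libraries. Their summed level was 52.9 and 65.2 in the mutant libraries and 60.2 to 66.9 in the wild-type libraries, and these ranges overlapped. In bulk RNA of this kind, fewer cells of a type and less RNA per cell cannot be told apart.

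KDM5A itself was at 23346 and 22816 in the mutant libraries and at 13452, 16237 and 15598 in the wild-type libraries. The groups did not overlap, and the mutant transgene was expressed at 1.53 times the wild-type level by the ratio of means. With empty vector the gene stood at 12.2, 15.3 and 12.3 in the knockout cells and at 13.3 and 17.7 in the parental cells. Its RNA level thus did not separate knockout from parental cells and does not check that label. In the limma fit over all 10 libraries the log2 difference between mutant and wild type was 0.62 ± 0.13 (SE; 95% interval 0.31 to 0.92), with an adjusted p of 0.0926, which did not pass the threshold of 0.05 (0.0216 in a fit of the 8 knockout libraries alone). KDM5A made up 1.97 and 1.99% of the mutant libraries' totals and 1.38 to 1.61% of the wild-type totals. Any difference between the groups below is therefore a difference between cells that also held unequal amounts of KDM5A RNA. Plasmid and genomic transcripts were not separated in the values.

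Few genes passed the test between mutant and wild-type KDM5A. Of 17779 genes tested with limma, 10 passed at an adjusted p under 0.05 (0.0562%), of which 6 were higher (0.0337%) and 4 lower (0.0225%) with the mutant. Of the 6, 3 entered the test only through the mutant libraries and are described below without a test. At an unadjusted p under 0.05 there were 3583 genes (20.2%), 1958 of them higher (11%) and 1625 lower (9.14%). By values alone, both mutant libraries lay above all 3 wild-type libraries for 3462 genes (19.5%) and below them for 3443 genes (19.4%). The count rested on the parental pair, whose spread enters the shared estimate of error: it was 970 without parental library 1, 970 without parental library 2 and 970 (5.46%) in a fit of the 8 knockout libraries (690 higher, 3.88%, and 280 lower, 1.57%), a setting chosen after seeing the data. With only the 5 libraries compared it was 214, without mutant library 2 it was 49, leaving out empty-vector library 1 gave 5, as did leaving out wild-type library 2, and leaving out empty-vector library 2 gave 6. Against the same 3 empty-vector libraries, 2939 genes (16.5%) passed with the mutant and 806 (4.53%) with the wild type. Of the 970 genes, 856 (88.2%) had the same sign in parental library 2 minus parental library 1: 630 of the 690 higher genes (91.3%) and 226 of the 280 lower genes (80.7%). Among all genes tested, 47.0% were higher and 51.5% lower in parental library 2. Across 11597 genes with a mean of at least 5, KDM5A left out, the difference between mutant and wild type and that between the parental libraries had a Pearson r of 0.433, a description across genes that share library make-up and are not independent replicates. Differences between mutant and wild type are therefore given here with values in the other groups.

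**Figure D2:**
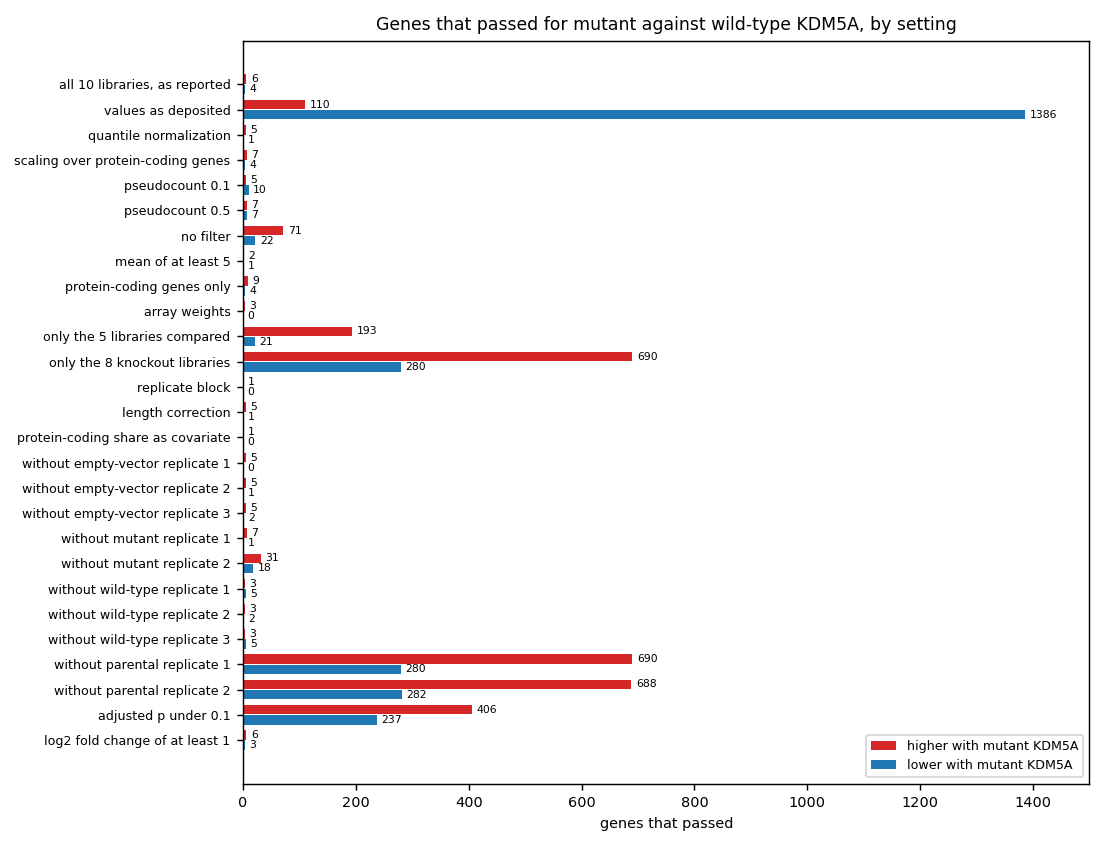
Number of genes past the threshold for mutant against wild-type KDM5A under each setting, higher genes in red and lower genes in blue, as horizontal bars from 0. The fit over 10 libraries gave 6 and 4, the fit of the 8 knockout libraries gave 690 and 280, and the deposited values without rescaling gave 110 and 1386.

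Of the 3 protein-coding genes that passed, VPS13A was lower with the mutant. VPS13A is a very large protein that carries lipids between membranes, and its loss causes chorea-acanthocytosis. It was at 14.1 and 14.96 with mutant KDM5A and at 26.7, 31.3 and 26.4 with wild-type KDM5A, so the mutant mean was 0.516 times the wild-type mean. With empty vector it was at 25.6, 25.9 and 25.5 in knockout cells and at 25.4 and 19.5 in parental cells. The mutant libraries were the lowest of the 10, and the wild-type libraries were close to empty vector. The log2 difference was -0.90 ± 0.11 (SE; limma adjusted p = 0.0497, n = 2 and 3). Against empty vector it was -0.78 with the mutant (adjusted p = 0.0054) and 0.13 with the wild type (adjusted p = 0.55). The parental libraries differed by -0.36. VPS13A passed in 10 of 24 settings and in 2 of the 10 that left out a library.

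ANKRD12 was higher with the mutant. It encodes an ankyrin repeat protein that binds nuclear receptor coactivators and recruits histone deacetylases. Its values were 17.3 and 13.6 with the mutant and 7.40, 5.98 and 7.78 with the wild type, a ratio of means of 2.19. Empty vector gave 8.74, 8.83 and 9.19 in knockout cells and 7.01 and 6.92 in parental cells, so both mutant libraries lay above the other 8. The log2 difference was 1.03 ± 0.13 (SE; limma adjusted p = 0.0497), against 0.72 for the mutant minus empty vector (adjusted p = 0.0097) and -0.31 for the wild type minus empty vector (adjusted p = 0.18). The parental libraries differed by -0.02. It passed in 11 of 24 settings and in 3 of the 10 that left out a library, and no setting turned the direction of ANKRD12 or VPS13A.

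HIST2H4B, a copy of the gene for histone H4, was at 41.7 and 28.2 with the mutant and at 7.76, 8.76 and 10.2 with the wild type. Empty vector gave 9.497, 9.13 and 9.07 in knockout cells and 6.09 and 5.00 in parental cells. The mutant mean was 3.93 times the wild-type mean and the log2 difference was 1.84 ± 0.17 (SE; limma adjusted p = 0.0095). It passed in 22 of 24 settings and in all 10 that left out a library. Its neighbour HIST2H4A shares 96.9% of its transcript sequence, so the split of reads between the copies is uncertain. HIST2H4A was at 17.0 and 13.0 against 9.23, 9.61 and 12.6, a log2 difference of 0.48 that did not pass (adjusted p = 0.26) and was 0.30 without mutant library 1. Summed over both copies, the mutant libraries held 58.7 and 41.3 and the wild-type libraries 17.0, 18.4 and 22.8, a ratio of 2.58. The sum was 12.5 in parental library 1 and 8.46 in parental library 2, a ratio of 0.676 for library 2 to library 1. The part of the library make-up in the values of this pair was not tested.

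The promoters of these protein-coding genes are shown because they are the loci whose transcripts changed in the test and because the ARID domain binds CCGCCC. Each is the 250 bases before the RefSeq start on GRCh38.p14, 5' to 3' on the gene's strand, with capitals for CCGCCC or its other strand GGGCGG. VPS13A lies at chr9:77177284-77177533 on the plus strand and ANKRD12 at chr18:9137313-9137562 on the plus strand. HIST2H4B, now named H4C15, lies at chr1:149861160-149861409 on the minus strand, and its window has 0 differences from that of HIST2H4A, now named H4C14, at chr1:149832407-149832656 on the plus strand, so it is printed once.
VPS13A: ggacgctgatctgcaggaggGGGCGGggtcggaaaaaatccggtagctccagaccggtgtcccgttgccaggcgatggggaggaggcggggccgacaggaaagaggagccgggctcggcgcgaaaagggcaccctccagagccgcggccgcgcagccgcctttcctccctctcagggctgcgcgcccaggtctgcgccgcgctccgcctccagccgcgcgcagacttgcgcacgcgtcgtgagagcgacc
ANKRD12: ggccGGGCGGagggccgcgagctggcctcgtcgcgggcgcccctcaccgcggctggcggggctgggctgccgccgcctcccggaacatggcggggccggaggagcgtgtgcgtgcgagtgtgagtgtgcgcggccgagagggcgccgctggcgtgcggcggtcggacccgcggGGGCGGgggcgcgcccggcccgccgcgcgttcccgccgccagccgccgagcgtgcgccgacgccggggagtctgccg
HIST2H4B: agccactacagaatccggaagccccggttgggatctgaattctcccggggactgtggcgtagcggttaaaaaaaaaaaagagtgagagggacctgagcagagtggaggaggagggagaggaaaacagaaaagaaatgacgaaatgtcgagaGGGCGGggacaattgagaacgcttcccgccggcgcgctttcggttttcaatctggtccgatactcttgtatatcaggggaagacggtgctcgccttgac
The motif was found 1 time before VPS13A, 2 times before ANKRD12 and 1 time before each histone copy. Of all 35116 RefSeq promoters of this length, 42.6% hold it, so it is common among promoters. The match is a description of letters and not of binding, which was not measured. The windows of VPS13A and HIST2H4B partly overlap the loci of the deposited values, and that of ANKRD12 lies within its locus. Which starts these cells use was not measured.

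The other 7 loci that passed are non-coding RNAs or pseudogenes, and they were named after their values were seen. TTC28-AS1_2, annotated as a 157-base RNA on chromosome 22, was at 519 and 330 with the mutant and was listed at 0 in the other 8 libraries in the deposited tables. All of its sequence occurs in another annotated gene. RN7SL573P, a pseudogene of the signal recognition particle RNA on chromosome 17, was at 7.14 and 4.83 with the mutant and was listed at 0 in the other 8 libraries. RP11-727F15.13, a transcript within an intron on chromosome 11, was at 4.39 and 4.097 with the mutant, at 0.567 in 1 empty-vector library and listed at 0 in the rest. These 3 loci reached the filter of 1 in 2 libraries only through the mutant libraries, so they had to differ once tested; their values are a description, and their place among the 6 higher loci supports nothing. AC005306.3, a non-coding transcript on chromosome 19, was at 2.96 and 2.25 with the mutant and at 0.325 or under with the wild type, but the parental libraries were at 3.89 and 3.11 (limma adjusted p = 0.0497). A value of exactly 0 in such files can be a failed estimate, so no fold is given.

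In the other direction, RP11-114H23.3, a processed pseudogene on chromosome 12, was listed at 0 in both mutant libraries and stood at 9.67, 13.9 and 7.27 with the wild type (limma adjusted p = 0.0497). EEF1DP2, a pseudogene of a translation elongation factor on chromosome 9, was at 0 and 0.012 with the mutant and at 4.78, 5.48 and 8.49 with the wild type (adjusted p = 0.020). A long non-coding RNA with a clone name at chr2:173811076-173811392 was listed at 0 in both mutant libraries and was at 2.69, 1.92 and 4.02 with the wild type (adjusted p = 0.0497). For these 3 loci the empty-vector and parental libraries were all above 1. AC005306.3, RP11-114H23.3 and the RNA on chromosome 2 passed in 9 of 22, 9 of 23 and 7 of 22.

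**Figure D3:**
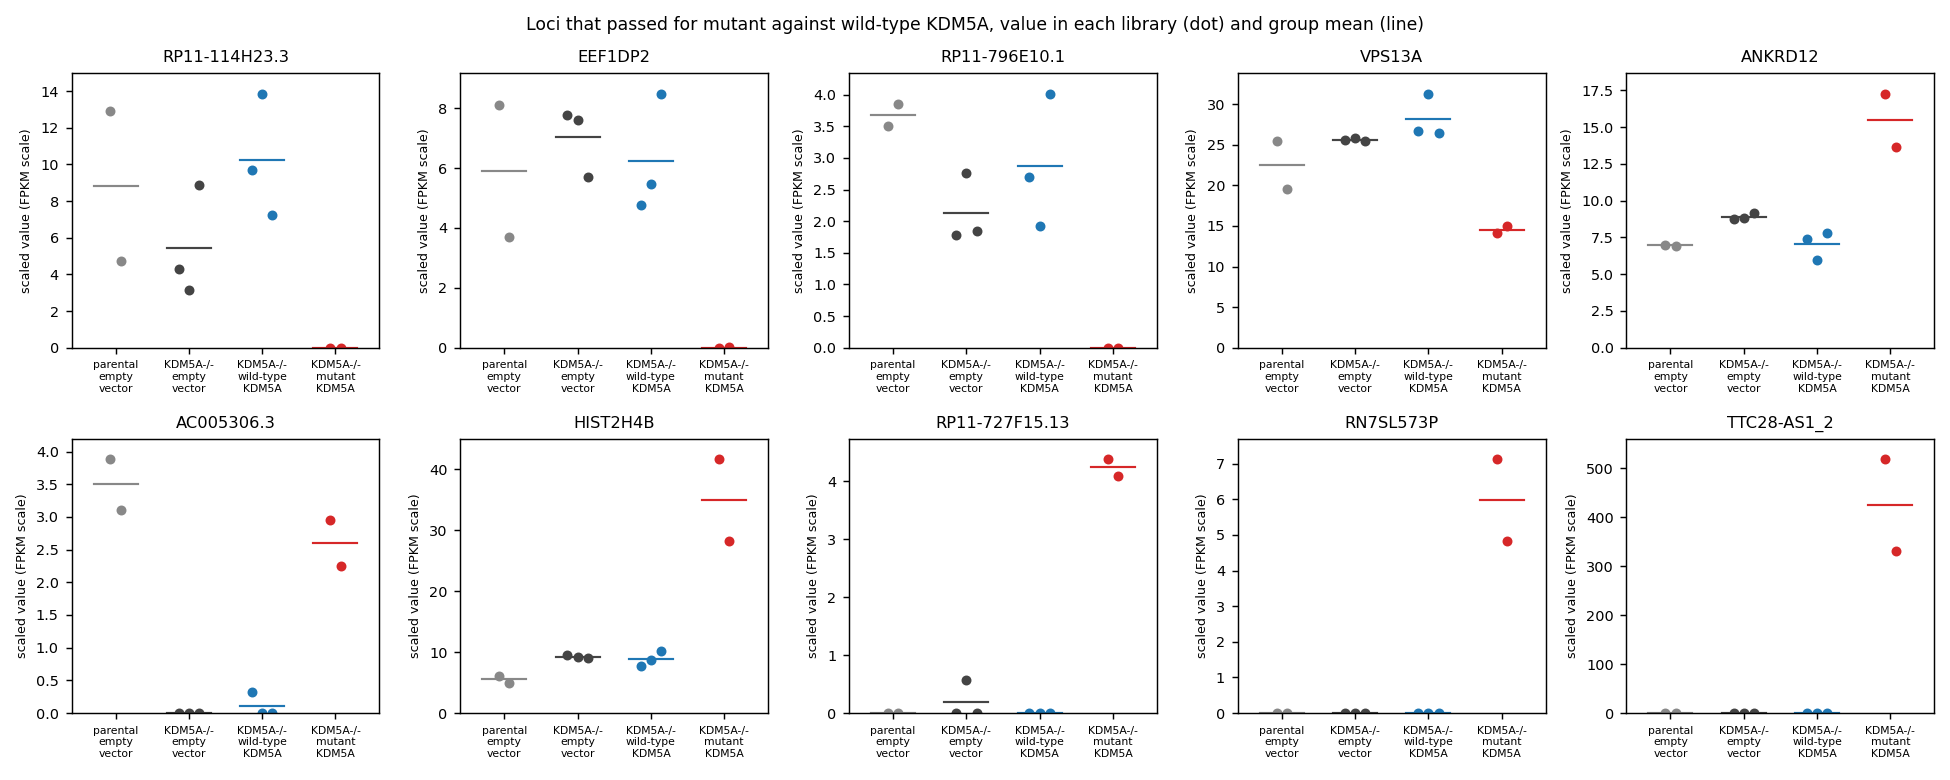
Scaled value of each of the 10 loci that passed, in every library (dots) with group means (lines). Both mutant libraries lie outside the range of the 3 wild-type libraries in every panel. In every panel but that of AC005306.3 they also lie outside the range of the empty-vector and parental libraries.

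Genes with near-identical copies had higher values in the mutant libraries and also in parental library 2. Among genes with a mean of at least 5, the 5846 with no 62-base word of their transcripts in another gene had a median log2 difference of -0.03 between mutant and wild type. The median was 0.35 for the 329 genes with over 75% of such words elsewhere, and 29.5% of those genes were higher in the fit of the 8 knockout libraries, against the background of 3.88%. Between parental library 2 and library 1 the medians were -0.05 and 0.44, and between wild type and empty vector they were 0.0046 and -0.00072. SMN1 and SMN2, the copies of the survival motor neuron gene, show this in single values. Their sum was 579 and 503 with the mutant, and 313, 276 and 282 with the wild type. It was 301, 300 and 274 with empty vector, and 268 and 500 in parental libraries 1 and 2. The ratio was thus 1.87 for mutant to wild type and 1.86 for parental library 2 to library 1. BOLA2 and BOLA2B, which take part in iron-sulfur protein assembly, gave 1.75 and 1.84. The sulfotransferase copies SULT1A3 and SULT1A4 gave 2.45 and 2.08, and the nuclease subunit copies SLX1A and SLX1B gave 1.72 and 1.39. The sums over copies are not affected by how reads were split within a pair. Whether sequence sharing has a part in these differences was not tested.

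**Figure D4:**
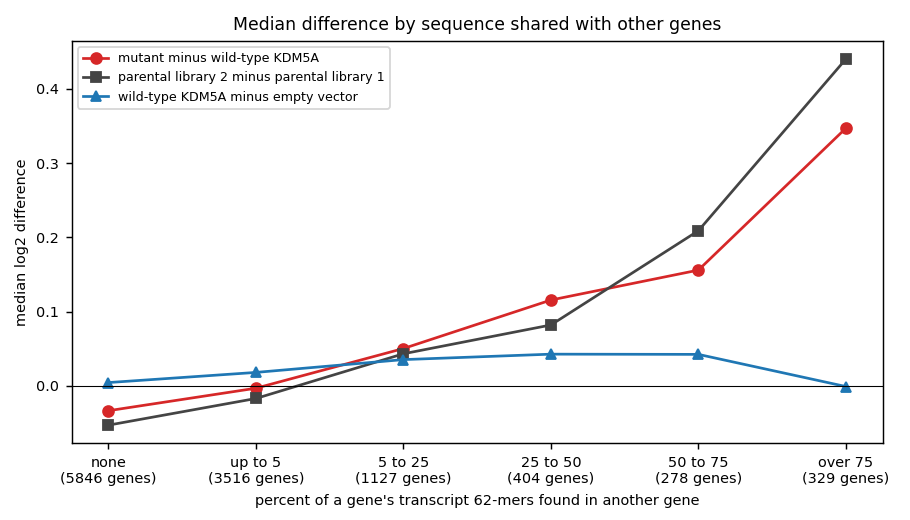
Median log2 difference of genes with a mean of at least 5, grouped by the percent of their transcript 62-base words found in another gene, for mutant minus wild type, parental library 2 minus library 1 and wild type minus empty vector. In the highest class the first 2 medians are 0.35 and 0.44 and the third is -0.00072.

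Genes of the translation machinery had higher values with the mutant. Among 78 cytosolic ribosomal protein genes, which encode the proteins of the ribosome, 0 passed in the fit of 10 libraries, 69 lay above the wild type in both mutant libraries and 0 below (background 19.5% and 19.4%), and 63 were higher in the fit of the 8 knockout libraries (background 3.88%). Their median log2 difference was 0.42, against -0.00059 over all genes. It was 0.33 in parental library 2 minus library 1, 0.57 in mutant minus empty vector and 0.15 in wild type minus empty vector. It was 0.02 after quantile normalization, which forces all libraries to the same distribution. RPLP1, a protein of the ribosomal stalk, was at 1875 and 1813 with the mutant, at 1125, 1230 and 1217 with the wild type, at 1088, 1063 and 1095 with empty vector and at 1131 and 1621 in parental cells (log2 difference 0.63 ± 0.13, SE; limma adjusted p = 0.0895). RPS18, of the small subunit, was at 3533 and 3530 with the mutant and at 2128, 2345 and 2316 with the wild type, and at 2191 and 3128 in the parental cells. For both genes the mutant libraries were the highest of the 10, and parental library 2 came next. RPLP1 and RPS18 passed in the fit of the 8 knockout libraries (adjusted p = 0.0019 and 0.0027).

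Messages of this class carry a tract of pyrimidines at their first base, the TOP motif, by which their translation is controlled. The starts of RPLP1 at chr15:69452798-69452837 and RPS18 at chr6:33272055-33272094, both on the plus strand of GRCh38.p14, are shown with 20 bases before and 20 after the RefSeq start and the tract in capitals.
RPLP1: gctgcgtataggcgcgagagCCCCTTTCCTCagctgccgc
RPS18: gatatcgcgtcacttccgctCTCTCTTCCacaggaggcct
The RefSeq start of RPS7, another ribosomal protein gene that was looked up, had a tract of length 0 and is not printed. A C followed by at least 4 pyrimidines at the start was found in 46 of 77 ribosomal protein starts (59.7%) and in 4.07% of all 35116 starts. The starts are RefSeq's and were not measured in these cells.

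The translation factors, 38 tested, had a median log2 difference of 0.21, which became -0.05 after quantile normalization and -0.02 with the deposited values, where the median of all genes was -0.19. None passed in the fit of 10 libraries, 24 lay above and 4 below the wild type in both mutant libraries (background 19.5% and 19.4%), and 14 were higher and 1 lower in the fit of the 8 knockout libraries (background 3.88% and 1.57%). The median was 0.09 without mutant library 1, and 0.13 between the parental libraries. TPT1, a TOP message, was at 2733 and 2475 against 1877, 2039 and 1977 (log2 difference 0.41, limma adjusted p = 0.0943), and its difference was -0.01 after quantile normalization. The 34 genes of ribosome biogenesis and MYC targets had a median of 0.07, which was -0.04 after quantile normalization, and none passed. Of these genes 13 lay above and 8 below the wild type (background 19.5% and 19.4%). In the fit of the 8 knockout libraries 4 were higher (background 3.88%). Of 19 hosts of small nucleolar RNAs, which guide the modification of ribosomal RNA, 8 lay above and 0 below the wild type, with a median of 0.19 that was -0.04 with the deposited values, 0.08 without mutant library 2 and 0.16 between the parental libraries. SNHG3 was at 163 and 155 against 124, 121 and 122 (0.37, adjusted p = 0.0926). TPT1 and SNHG3 passed with the 8 knockout libraries (adjusted p = 0.0184 and 0.0199). Among 20 aminoacyl-tRNA synthetases, which load amino acids onto tRNA, none passed and 8 lay above and 2 below the wild type (background 19.5% and 19.4%). Their median was 0.05, and -0.05 after quantile normalization.

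Genes of mitochondrial respiration also had higher values with the mutant. Of 77 nuclear-encoded subunits of oxidative phosphorylation, 56 lay above and 1 below the wild type in both mutant libraries (background 19.5% and 19.4%) and 27 were higher in the fit of the 8 knockout libraries (background 3.88%), while none passed with all 10. The median difference was 0.27, against 0.20 between the parental libraries and 0.08 for wild type minus empty vector. It was 0.11 after quantile normalization, 0.04 with the deposited values and 0.075 with the protein-coding share as covariate. NDUFB2, a subunit of complex I, was at 294 and 316 with the mutant, at 220, 228 and 228 with the wild type and at 220 and 263 in the parental cells (log2 difference 0.43, adjusted p = 0.0816). NDUFB1, of the same complex, was at 199 in each mutant library against 125, 129 and 129 (0.63, adjusted p = 0.0894). The 13 proteins encoded in mitochondrial DNA had a median of 0.34, 11 of them above and 1 below the wild type. The parental median was 0.28, and after quantile normalization the mutant median was -0.05. MT-ND3 was at 8433 and 8633 against 5097, 5901 and 5583, and at 4887 and 7074 in the parental cells (0.63, adjusted p = 0.0931). Of 76 mitochondrial ribosomal proteins, 45 lay above and 4 below, with a median of 0.16 that was -0.07 with the deposited values and 0.14 between the parental libraries. MRPS21 was at 65.2 and 73.4 against 52.4, 52.4 and 48.1 (0.44, adjusted p = 0.0926). NDUFB2, NDUFB1, MT-ND3 and MRPS21 passed with the 8 knockout libraries (adjusted p = 0.0063, 0.0106, 0.0055 and 0.0147).

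**Figure D5:**
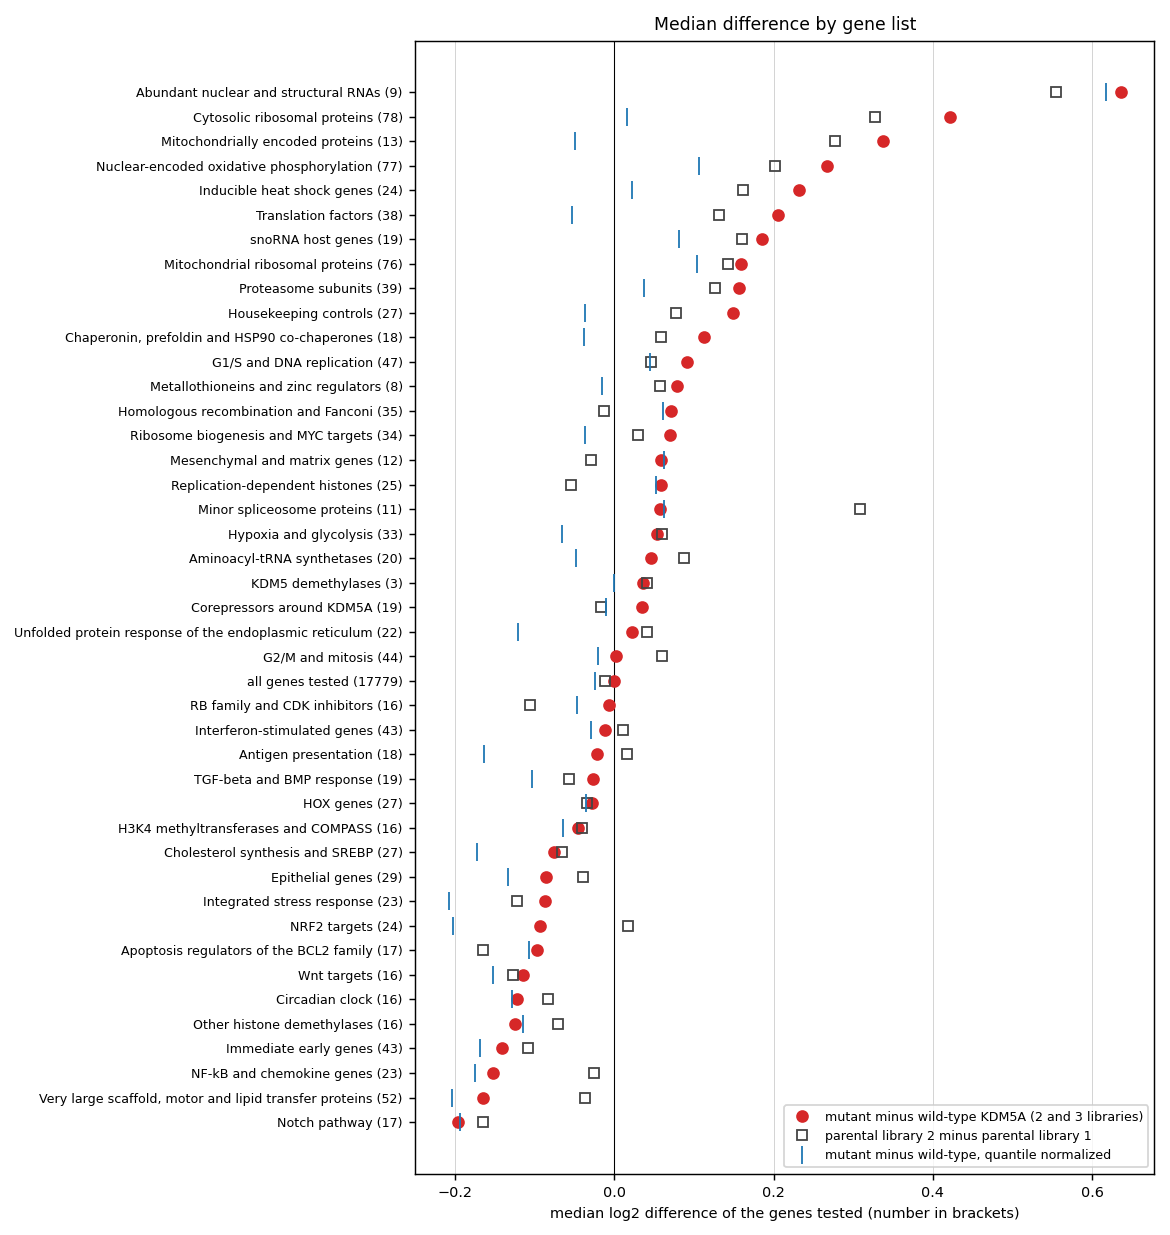
Median log2 difference of the gene lists shown (number of genes tested in brackets) for mutant minus wild-type KDM5A (filled circles), for parental library 2 minus library 1 (open squares) and for mutant minus wild type after quantile normalization (blue ticks). The ribosomal protein median is 0.42, 0.33 and 0.02 on these 3 measures, and the sign of the translation factor, mitochondrially encoded and chaperonin medians turns after quantile normalization.

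Inducible heat shock genes had higher values with the mutant than with the wild type, and with both than with empty vector. These genes encode chaperones switched on by the factor HSF1 when proteins misfold. HSPA1A, an inducible HSP70, was at 925 and 879 with the mutant, at 518, 470 and 500 with the wild type, at 116, 127 and 120 with empty vector and at 147 and 233 in the parental cells. The groups did not overlap, and the log2 difference between mutant and wild type was 0.86 ± 0.15 (SE; limma adjusted p = 0.0806). HSPA1B, its copy, was at 1091 and 1087 against 692, 688 and 719, with 175, 184 and 181 in empty vector (0.64 ± 0.10, SE; adjusted p = 0.0580). Over both copies the mutant held 1.67 times the wild-type sum, the wild type 3.97 times the empty-vector sum, and parental library 2 held 1.43 times that of library 1. DNAJB1, the co-chaperone of HSP70, was at 298 and 290 with the mutant, at 248, 255 and 246 with the wild type, at 144, 141 and 143 with empty vector and at 135 and 134 in the parental libraries (0.24 ± 0.04, SE; adjusted p = 0.0849). For DNAJB1 the parental libraries did not differ in the way the mutant did (-0.02). AHSA1, an activator of HSP90, was at 289 and 221 against 174, 177 and 179 (0.52, adjusted p = 0.0926), a difference that was 0.32 without mutant library 1. All 4 genes passed with the 8 knockout libraries, HSPA1A and HSPA1B at adjusted p of 0.0011 and 0.0010, DNAJB1 at 0.0175 and AHSA1 at 0.0293.

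Over 24 inducible heat shock genes the median difference was 0.23, against 0.16 between the parental libraries and 0.02 after quantile normalization, and 0.13 without mutant library 1. None passed in the fit of 10 libraries, 17 lay above and 1 below the wild type in both mutant libraries (background 19.5% and 19.4%), and 7 were higher in the fit of the 8 knockout libraries (background 3.88%). The median was 0.52 for mutant minus empty vector and 0.22 for wild type minus empty vector, comparisons that share the empty-vector libraries. The 3 knockout groups had the same order in HSPA1A, HSPA1B and KDM5A RNA, and the part of the amount of KDM5A RNA in these values was not tested. The promoters of the HSP70 pair are shown because their letters nearly coincide while the values of the genes were counted apart. They lie at chr6:31815293-31815542 and chr6:31827488-31827737, both on the plus strand of GRCh38.p14, and capitals mark facing heat shock elements, GAANNTTC or TTCNNGAA.
HSPA1A: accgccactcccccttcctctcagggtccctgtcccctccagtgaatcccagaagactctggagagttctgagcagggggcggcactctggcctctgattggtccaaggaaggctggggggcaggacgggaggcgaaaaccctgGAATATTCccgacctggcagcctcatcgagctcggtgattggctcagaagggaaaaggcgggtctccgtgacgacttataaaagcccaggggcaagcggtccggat
HSPA1B: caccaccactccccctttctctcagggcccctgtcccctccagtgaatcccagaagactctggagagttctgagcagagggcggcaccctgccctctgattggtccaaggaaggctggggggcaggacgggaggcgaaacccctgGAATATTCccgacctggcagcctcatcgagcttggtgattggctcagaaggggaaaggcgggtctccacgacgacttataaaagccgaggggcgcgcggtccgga
The pair of elements was found in 15 of 35 starts of these heat shock genes (42.9%), in 15 of the 22 genes with a start in the table, and in 11.6% of all promoters. Other protein-folding lists had smaller medians. Of 18 chaperonin, prefoldin and HSP90 co-chaperone genes 10 lay above and 1 below, with a median of 0.11 that was -0.04 after quantile normalization, 0.20 without mutant library 2 and 0.06 between the parental libraries. PFDN5, a prefoldin subunit, was at 518 and 462 against 340, 319 and 347 (0.54, adjusted p = 0.0937). Of 39 proteasome subunits 26 lay above and 3 below, with a median of 0.16 that was -0.07 with the deposited values, 0.099 without mutant library 1 and 0.13 between the parental libraries. PSMD4, its ubiquitin receptor, was at 290 and 265 against 223, 222 and 231 (0.30, adjusted p = 0.0927). PFDN5 and PSMD4 passed with the 8 knockout libraries (adjusted p = 0.0055 and 0.0209).

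None of the listed genes that write or erase histone methylation passed between the groups. KDM5B, a paralog with the same enzyme activity, was at 14.0 and 14.8 with the mutant and at 15.6, 18.6 and 17.0 with the wild type (log2 difference -0.23 ± 0.08, SE; limma adjusted p = 0.17). With empty vector it was at 25.8, 26.2 and 26.99 in knockout cells and at 24.5 and 25.2 in parental cells. It was lower than empty vector with both proteins, by -0.83 with the mutant (adjusted p = 0.0012) and by -0.60 with the wild type (adjusted p = 0.0048). KDM5C was at 49.4 and 61.6 against 52.9, 49.9 and 58.7, so the groups overlapped. Its log2 difference of 0.04 has a 95% interval of -0.19 to 0.27. The sign for KDM5C turned with the deposited values (-0.19) and without mutant library 2 (-0.12).

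Of 16 genes listed for H3K4 methylation (methyltransferases and COMPASS), 2 lay above and 7 below the wild type in both mutant libraries (background 19.5% and 19.4%), and none passed. KMT2E was at 17.1 and 16.2 with the mutant, at 21.01, 21.9 and 23.1 with the wild type and at 31.8, 28.6 and 32.0 with empty vector (log2 difference -0.38, adjusted p = 0.0926). SETD7 was at 32.0 and 32.6 against 38, 40.8 and 38.5, and at 38.5, 39.2 and 38.9 with empty vector (-0.27, adjusted p = 0.0927). Both passed in the fit of the 8 knockout libraries (adjusted p = 0.0337 and 0.0348). Of 16 other histone demethylases 0 lay above and 6 below, with a median of -0.12. JMJD1C was at 30.0 and 22.7 against 35.3, 40.1 and 35.4 (-0.48, adjusted p = 0.10; -0.29 without mutant library 2), and KDM6B, which erases the repressive mark on lysine 27, was at 22.9 and 25.8 against 29.2, 29.9 and 30.4 (-0.28, adjusted p = 0.12). Of 19 corepressor genes that act with KDM5A, 5 lay above and 3 below, shares near the background. BRMS1 was at 58.4 and 60.9 against 49.8, 52.4 and 46.8 (0.26, adjusted p = 0.11). HDAC1 was at 225 and 215 against 197, 198 and 199 (0.15, adjusted p = 0.12), a sign that turned to -0.07 with the deposited values.

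Few inflammatory genes had higher values with the mutant than with the wild type. CXCL8, the neutrophil chemokine interleukin 8, was at 150 and 116 with the mutant, at 150, 154 and 149 with the wild type, at 29.4, 26.6 and 29.8 with empty vector and at 15.5 and 16.6 in parental cells. The mutant and wild-type ranges overlapped for CXCL8, and its log2 difference of -0.19 has a 95% interval of -0.42 to 0.04. That difference was -0.37 without mutant library 1 and -0.0068 without mutant library 2. Over 23 genes of the NF-kB pathway and chemokines, 1 lay above and 9 below the wild type (background 19.5% and 19.4%), the median was -0.15 and -0.03 between the parental libraries, and none passed. NFKBIZ, an inhibitor-like cofactor of NF-kB, was at 14.6 and 18.6 against 23.7, 23.4 and 32.9, and at 13.6, 11.02 and 13.8 with empty vector (-0.64, adjusted p = 0.10). NFKBIE, which holds NF-kB in the cytoplasm, was the member above: 23.7 and 24.0 against 18.2, 19.3 and 18.9, with 25.8, 23.9 and 24.1 in empty vector (0.33, adjusted p = 0.0895; 0.0320 with the 8 knockout libraries). For NFKBIE the wild-type libraries, rather than the mutant ones, stood apart from empty vector.

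Of 43 interferon-stimulated genes, 8 lay above and 4 below the wild type in both mutant libraries (background 19.5% and 19.4%), and the median difference was -0.01. That median turned to 0.06 without mutant library 2, to 0.02 without wild-type library 1 and to 0.01 without wild-type library 3. The median over empty vector was 0.43 with the mutant and 0.49 with the wild type. ISG15, a ubiquitin-like protein induced by interferon, was at 575 and 561 with the mutant, at 470, 503 and 487 with the wild type and at 299, 273 and 281 with empty vector (0.22 for mutant minus wild type, limma adjusted p = 0.11; -0.0038 with the deposited values). SAMD9, an antiviral factor, was at 7.47 and 6.99 against 9.96, 10.8 and 9.98, and at 6.59, 6.37 and 6.36 with empty vector (-0.45, adjusted p = 0.0937). Of these members 1 had higher and the other lower values with the mutant. In antigen presentation, 18 genes tested, 5 lay above and 4 below, and TAPBP, which loads peptides onto class I molecules, was at 65.2 and 68.7 against 86.5, 82.9 and 89.2 (-0.36, adjusted p = 0.10). ISG15, SAMD9 and TAPBP passed with the 8 knockout libraries (adjusted p = 0.0475, 0.0344 and 0.0129).

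Immediate early and growth factor response genes lay below the wild type in more members than above it. Of 43 tested, 5 lay above and 23 below the wild type in both mutant libraries, against a background of 19.5% and 19.4%, and 0 were higher and 5 lower in the fit of the 8 knockout libraries (background 3.88% and 1.57%). The median was -0.14, and it was -0.11 between the parental libraries. KLF6, a zinc finger factor, was at 55.6 and 55.9 with the mutant, at 76.5, 67.3 and 69.9 with the wild type and at 60.0, 60.7 and 57.3 with empty vector (log2 difference -0.35 ± 0.07, SE; limma adjusted p = 0.0888). The parental libraries were at 49.2 and 52.2 for KLF6, a difference of 0.08 in the other direction. DUSP5, a phosphatase that switches off ERK, was at 230 and 228 against 264, 279 and 278, and at 248, 239 and 243 with empty vector (-0.26, adjusted p = 0.0894). EGR1, a growth factor response factor, was at 162 and 168 against 183, 188 and 187, far from the 348, 358 and 366 of empty vector (-0.17, adjusted p = 0.12). KLF6 and DUSP5 passed with the 8 knockout libraries (adjusted p = 0.0246 and 0.0167).

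Stress pathways that control amino acid and redox supply held members lower and members higher with the mutant. SLC7A11, which imports cystine and is a target of both ATF4 and NRF2, was at 30.2 and 29.5 with the mutant, at 40.6, 41.7 and 41.3 with the wild type, at 47.2, 47.0 and 47.3 with empty vector and at 39.5 and 33.9 in the parental libraries. The groups did not overlap (log2 difference -0.45 ± 0.07, SE; limma adjusted p = 0.0580). SLC7A1, an importer of arginine and lysine, was at 41.7 and 43.02 against 53.7, 54.4 and 54.2 (-0.35, adjusted p = 0.0931). SLC7A11 and SLC7A1 passed with the 8 knockout libraries (adjusted p = 0.0044 and 0.0140). Of 23 genes of the integrated stress response 2 lay above and 11 below (background 19.5% and 19.4%), with a median of -0.09. Of 24 NRF2 targets 5 lay above, a share near the background, and 10 below, with a median of -0.09. The parental medians were -0.12 and 0.02. In the fit of the 8 knockout libraries 1 was higher and 3 lower in the first list (background 3.88% and 1.57%). In the second list 2 were higher and 3 lower. ATF4 itself had higher values with the mutant (0.22, limma adjusted p = 0.094 with 10 libraries and 0.015 with the 8 knockout libraries). Its difference between the parental libraries was 0.13. In the unfolded protein response of the endoplasmic reticulum, 22 genes tested, 8 lay above and 6 below, and the median of 0.02 turned to -0.12 after quantile normalization. DNAJB9, a chaperone of that compartment, was at 42.5 and 44.1 against 31.3, 34.5 and 37.2, and at 23.8, 25 and 23.5 with empty vector (0.33, adjusted p = 0.0953).

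Cell cycle genes, on which KDM5A is studied through its tie to the retinoblastoma protein, showed no call in the fit of 10 libraries. Of 47 genes of G1/S and DNA replication 20 lay above and 6 below the wild type (background 19.5% and 19.4%), with a median of 0.09 that was -0.13 with the deposited values. LIG1, the DNA ligase of replication, was at 41.8 and 44.9 against 33.2, 36.7 and 33.5, and at 40.1, 39.2 and 39.2 with empty vector (0.32, adjusted p = 0.0937). Of 44 G2/M genes 14 lay above and 9 below with a median of 0.0026, which turned to -0.02 after quantile normalization. PTTG1, the securin that guards chromatid separation, was at 224 and 197 against 149, 148 and 139, and at 145 and 204 in the parental libraries (0.53, adjusted p = 0.0937). CDKN1A, the inhibitor p21, was at 325 and 374 with the mutant, at 397, 399 and 400 with the wild type and at 312, 321 and 318 with empty vector (-0.19, adjusted p = 0.22; -0.09 without mutant library 1). It was the member of smallest p among 16 genes of the RB family and CDK inhibitors, of which 1 lay above and 4 below. Of 35 genes of homologous recombination and the Fanconi pathway 6 lay above and 3 below, and RAD51C was at 85.6 and 83.5 against 70.9, 74.4 and 66.7 (0.26, adjusted p = 0.18). LIG1 and PTTG1 passed with the 8 knockout libraries (adjusted p = 0.0324 and 0.0055).

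Developmental and metabolic lists had no member that passed. Of 27 HOX genes, body-plan regulators at which KDM5A is known to act, 5 lay above and 3 below (background 19.5% and 19.4%). HOXB7 was at 47.1 and 45.6 with the mutant, at 37.6, 37.1 and 37.8 with the wild type, at 46.3, 45.6 and 44.0 with empty vector and at 39.2 and 48.4 in the parental libraries (log2 difference 0.30, limma adjusted p = 0.11). Of 27 genes of cholesterol synthesis 4 lay above and 10 below. SREBF1, a master regulator of lipid synthesis, was at 139 and 159 against 209, 175 and 206, and at 241, 242 and 233 with empty vector (-0.40, adjusted p = 0.11). Of 17 Notch pathway genes 4 lay above and 8 below, with a median of -0.20 that was -0.16 between the parental libraries and -0.09 without mutant library 1. NOTCH2, a receptor, was at 24.0 and 22.7 against 29.3, 30.2 and 30.5 (-0.35, adjusted p = 0.0937). Of 16 Wnt targets 2 lay above and 7 below. DKK1, a secreted Wnt inhibitor, was at 170 and 147 against 123, 122 and 122, and at 124, 120 and 122 with empty vector (0.37, adjusted p = 0.0926). Of 16 clock genes 3 lay above and 6 below, and NR1D1, the clock repressor REV-ERB alpha, was at 85.3 and 85.0 against 96.3, 97.6 and 99.6, and at 153, 150 and 156 with empty vector (-0.20, adjusted p = 0.0952). With the 8 knockout libraries HOXB7, SREBF1 and NOTCH2 passed (adjusted p = 0.0197, 0.0420 and 0.0391), as did DKK1 and NR1D1 (0.0180 and 0.0367).

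Very large proteins, the list that holds VPS13A and ANKRD12, had 3 members above and 25 below the wild type among 52 tested, against a background of 19.5% and 19.4%. It had 1 member that passed in each direction, and 2 higher and 8 lower in the fit of the 8 knockout libraries (background 3.88% and 1.57%). The median was -0.17, and it was -0.04 between the parental libraries and -0.08 with the trend in length removed. Of all protein-coding genes of 8000 to 16000 exonic bases, 11.9% lay above and 31.05% below the wild type. Of those with more than 16000 bases, 9.9% lay above and 31.06% below. VPS13C, a relative of VPS13A that carries lipids at late endosomes and mitochondria, was at 4.42 and 3.27 with the mutant, at 7.46, 7.20 and 8.21 with the wild type, at 6.71, 7.33 and 6.52 with empty vector and at 7.19 and 8.33 in the parental libraries. Its log2 difference was -0.84 ± 0.13 (SE; limma adjusted p = 0.0674) and 0.19 between the parental libraries. PHIP, a chromatin reader, was at 9.72 and 8.74 against 12.5, 12.7 and 12.4 (-0.40, adjusted p = 0.0926). VPS13C and PHIP passed in the fit of the 8 knockout libraries (adjusted p = 0.0147 and 0.0351).

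The difference between mutant and wild type also ran with transcript length over all protein-coding genes. The median was 0.12 for 265 genes of up to 1000 exonic bases and 0.10 for 1051 genes of 1000 to 2000. It was -0.07 for 2409 genes of 8000 to 16000, and -0.10 for 293 genes of more than 16000. Between the parental libraries the first and last of these medians were 0.06 and -0.05, and for wild type minus empty vector they were 0.07 and -0.04. VPS13A holds 20196 exonic bases and ANKRD12 12252, and they moved in opposite directions. With the trend in length removed 6 genes passed, among them ANKRD12 (log2 difference 1.11, adjusted p = 0.0384) but not VPS13A (-0.81, adjusted p = 0.0573). The part of length in the large-protein values was not tested further.

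Structural RNAs differed between the mutant libraries themselves. RN7SL3, a signal recognition particle RNA, was at 121 and 275 with the mutant, at 25.7, 22.9 and 18.9 with the wild type, at 24.3, 9.08 and 42.0 with empty vector and at 40.8 and 94.9 in the parental libraries (log2 difference 2.98 ± 0.59, SE; limma adjusted p = 0.0895). RN7SK, which holds back the elongation factor P-TEFb, was at 58.4 and 594 with the mutant and at 37.5, 30.7 and 31.8 with the wild type, so its difference of 2.46 ± 0.73 (SE; adjusted p = 0.12) came mostly from mutant library 2 and was 0.80 without it. MALAT1, a nuclear non-coding RNA, was at 166 and 202 against 111, 102 and 94.6, and at 75.3 and 208 in the parental libraries. Of 9 such RNAs tested 5 lay above and 1 below (background 19.5% and 19.4%), and their median of 0.64, which was 0.37 without wild-type library 1 and 0.55 between the parental libraries, turned to -0.22 in a fit with protein-coding share as covariate. The 25 replication-dependent histone genes, HIST2H4B among them, had 6 above and 1 below with a median of 0.06. Among 8 metallothionein and zinc genes 3 lay above and 2 below, and MT1X, a zinc-binding protein, was at 189 and 111 against 89.9, 67.6 and 71.8, and at 89.0 and 182 in the parental libraries (0.92, adjusted p = 0.14; 0.54 without mutant library 1). RN7SL3, MALAT1 and MT1X passed with the 8 knockout libraries (adjusted p = 0.0271, 0.0147 and 0.0448).

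Housekeeping controls, 27 genes often taken as stable, had a median of 0.15 between mutant and wild type, with 15 above and 3 below (background 19.5% and 19.4%) and 5 higher in the fit of the 8 knockout libraries (background 3.88%). That median was -0.04 after quantile normalization, 0.09 without mutant library 1 and 0.08 between the parental libraries. Epithelial genes had 4 above and 10 below among 29 tested. ITGA6, an integrin of the basal surface, was at 63.1 and 58.1 against 72.8, 78.4 and 74.8 (log2 difference -0.31, limma adjusted p = 0.0849), and at 67.4 and 68.6 in the parental libraries. KRT8 was at 2298 and 2144 against 1758, 1889 and 1858 (0.28, adjusted p = 0.0981), which turned to -0.09 after quantile normalization. ITGA6 and KRT8 passed with the 8 knockout libraries (adjusted p = 0.0238 and 0.0220).

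In 5 further lists no gene passed with 10 libraries. Of 33 genes of hypoxia and glycolysis 13 lay above and 6 below (background 19.5% and 19.4%), with a median of 0.05 that was -0.07 after quantile normalization. Of 19 genes of the response to TGF-beta and BMP 1 lay above and 6 below, with a median of -0.03. The 17 apoptosis regulators of the BCL2 family had 1 above and 5 below with a median of -0.10, which was -0.17 between the parental libraries. Of 11 minor spliceosome proteins 3 lay above and 1 below, and of 12 mesenchymal and matrix genes 1 lay above and 3 below. Both medians were 0.06, and they were -0.14 and -0.15 with the deposited values.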

How the data were processed

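Total RNA of 10 libraries was sequenced on Illumina instruments of more than 1 kind, per the labels, which do not say which served which library. The authors deposited 1 table a library with log2 FPKM per locus, per the file headers, and values taken to the linear scale as 2 to the power of the value minus 1 summed to between 999975 and 1000008 in each library, so depth is unknown. The build GRCh38 and the tools Cufflinks 2.2.1, GATK 4.1.2, Picard and STAR 2.7.1a are named per the submitters' processing notes; the gene annotation, the strand setting and the role of each tool are not given in the sources used here.

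From 60141 loci, linear values were summed over 57993 symbols and scaled by the median of ratios over 13651 genes at 1 or more in all libraries. The 17779 genes at 1 or more in at least 2 libraries were tested as log2(value + 1) with limma 3.58.1 (R 4.3.3; trended prior, 4 groups, 6 residual degrees of freedom) with Benjamini-Hochberg adjustment, and passed at an adjusted p under 0.05. All 10 libraries entered so that the groups share 1 estimate of error. Python 3.11.15, pandas 2.3.3 and numpy 2.4.6 were used for tables and matplotlib 3.10.9 for figures. Gene types and exonic lengths came from GENCODE 29, matched for 94.0% of loci by symbol, position or overlap. Sequence sharing is the percent of a gene's 62-base transcript words found in another gene. Promoters are RefSeq's (GRCh38.p14), matched by symbol. The test was checked on simulated data of 17779 genes for mutant against wild type. It recovered 44.8% of genes changed by 0.5 on the log2 scale and 86.6% of those changed by 1, with 10 false calls. The simulated noise was independent between libraries with the same spread in every library, and low genes were left unchanged. The make-up shared by the mutant libraries and parental library 2 was not simulated, so these rates may not hold for the real libraries. No libraries held identical values.

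The comparison and the 44 gene lists were chosen with earlier results of these data known, and 1 list is not reported here. Named genes were KDM5A, protein-coding genes that passed with a mean of at least 5 and, in each list, those that passed or the 1 or 2 of smallest p. CXCL8, EGR1, ATF4, DNAJB1, AHSA1, MALAT1, KDM5C, HIST2H4A, VPS13C, PHIP and the copy pairs were added after their values were seen. Alternatives were other scalings, pseudocounts, filters, weights, covariates, subsets of libraries and thresholds.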

Additional observations from a re-analysis of the deposited data

How the results depend on the processing

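The count of 10 genes for mutant against wild type became 1496 with the deposited values (110 higher, 1386 lower, where the median of all genes was -0.19), 6 after quantile normalization, 93 with no filter, 3 with a mean of at least 5 and 3 with array weights. It was 214 with only the 5 libraries compared, 970 with the 8 knockout libraries, 6 with the length correction, 1 with the protein-coding share as covariate and 643 at an adjusted p under 0.1. Leaving out 1 library at a time gave 5 to 970 genes. A lone library left in a group adds nothing to the estimate of error and is assumed to vary like the other groups. Scaling over protein-coding genes, the pseudocounts of 0.1 and 0.5, protein-coding genes only and a log2 difference of at least 1 kept it between 9 and 15. Replicate numbers did not pair the samples (correlations of same-numbered deviations -0.029 and 0.027), and a replicate block left 1 gene.

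The KDM5A difference was 0 after quantile normalization, where the gene ranks first in every library with a KDM5A plasmid. It was 0.39 with the deposited values, 0.34 with the protein-coding share as covariate and 0.70 with the length correction. It was 0.62, with an adjusted p of 0.0216, in the 8 knockout libraries and 0.62 with a p of 0.0214 after leaving out either parental library, and over left-out libraries it ranged from 0.54 to 0.67. At a threshold of 0.1 the reported 0.62 passes. With the replicate block it was 0.61. Signs turned with the deposited values for HDAC1 (-0.072), ISG15 (-0.0038) and KDM5C (-0.19), after quantile normalization for KRT8 (-0.090) and TPT1 (-0.010), with the protein-coding share as covariate for MALAT1 (-0.37), and for KDM5C without mutant library 2 (-0.12) and without wild-type library 2 (-0.016), within a range of -0.12 to 0.19 over left-out libraries. The cause was not tested. Unknown depth limits statements on genes near 1.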

Other observations

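Some genes that passed in the fit of the 8 knockout libraries differed little between the parental libraries. A rule chosen after the data were seen asked for a parental difference under 0.25 on the log2 scale and at most 25% of sequence shared. It also asked for protein-coding genes, a mean of at least 5 and no overlap between mutant and wild type. It kept 149 of the 690 higher genes and 135 of the 280 lower genes. The median gene tested differed by 0.186 between the parental libraries, so most genes meet the limit of 0.25. A small parental difference therefore does not set these genes apart, and the share of all genes that meets the rule was not counted. The limit is fixed, so some genes kept differed as much between the parental libraries as between mutant and wild type. LAMA5 differed by -0.23 in both, and SYNGR2 by -0.23 between the parental libraries and -0.18 for mutant minus wild type. For ANKRD12 these differences were -0.02 and 1.03. None of those named here, other than ANKRD12, passed in the fit of 10 libraries, and no test is given for a list chosen in this way.

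Among the higher genes, TEX29 was at 5.14 and 5.20 with the mutant, at 1.58, 2.36 and 1.34 with the wild type and at 3.34, 2.35 and 2.56 with empty vector (log2 difference 1.18, limma adjusted p = 0.0182 with 8 libraries and 0.0759 with 10). APOBEC3F, a cytidine deaminase that restricts viruses, was at 26.8 and 20.4 with the mutant, at 14.9, 10.7 and 11.6 with the wild type and at 17.0 and 17.6 in parental cells (0.88, adjusted p = 0.0215 and 0.0761). ZNF19, a zinc finger protein, was at 6.35 and 4.32 against 1.33, 1.70 and 2.87 (1.11, adjusted p = 0.0431 and 0.0926).

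Among the lower genes, TBL1XR1, a subunit of the NCoR corepressor, was at 45.0 and 46.2 with the mutant, at 61.4, 65.9 and 67.7 with the wild type, at 65.5, 71.6 and 69.3 with empty vector and at 63.4 and 57.3 in parental cells (log2 difference -0.50, limma adjusted p = 0.0065 with 8 libraries and 0.0523 with 10). PPAP2A, a lipid phosphatase, was at 11.6 and 10.3 against 22.1, 18.4 and 18.3 (-0.78, adjusted p = 0.0108 and 0.0561). MIA3, which helps load collagen for export from the endoplasmic reticulum, was at 22.4 and 25.1 against 42.0, 40.4 and 41.0 (-0.77, adjusted p = 0.0172 and 0.0759). TPR, a nuclear pore protein, was at 37.4 and 32.2 against 53.2, 52.99 and 49.7, but at 37.7 and 33.5 in parental cells (-0.57, adjusted p = 0.0440 and 0.0927). The mutant libraries lay below the other 8 for TBL1XR1, PPAP2A and MIA3 and not for TPR.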
